A study of Mus musculus with 9 samples.

Results

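Cathepsins are the proteases of the lysosome, and 8 of them were followed in sorted fetal liver macrophages together with legumain (*Lgmn*), the lysosomal asparaginyl endopeptidase, and cystatin C (*Cst3*), a secreted inhibitor of cysteine cathepsins. These 10 genes were picked by name (*Ctsa*, *Ctsb*, *Ctsc*, *Ctsd*, *Ctsh*, *Ctsl*, *Ctss*, *Ctsz*, *Lgmn* and *Cst3*), and all 10 had a row among the 13708 genes of the deposited table and passed the filter on low values that left 13594 genes for the test. Bulk RNA-seq was done on CD45+ F4/80hi CD11blow macrophages, Tim4hi and Tim4lo cells together, sorted from mouse livers at embryonic day E15.5. There were 5 samples of Mrc1Cre Xpr1fl/fl embryos and 4 of Xpr1fl/fl embryos. XPR1 is a phosphate exporter of the cell membrane, and the comparison asks what its loss changes in these cells.

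Both groups carry *Xpr1* alleles in which loxP sites flank exon 2, on a C57BL/6JRj background. The Mrc1Cre Xpr1fl/fl group carries in addition an iCre and eYFP construct inserted in exon 30 of *Mrc1*, the gene of the mannose receptor CD206, and the study used its Cre strains as heterozygotes. The controls carry no such insertion, so effects of the insertion and of the loss of *Xpr1* cannot be told apart. Liver sinusoidal endothelial cells also make CD206, so the Cre can act in them as well as in macrophages. The labels do not say whether the samples are separate embryos or litters, so the p-values measure the spread between these samples only.

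Cathepsins reach the lysosome as inactive proenzymes, mostly by the mannose 6-phosphate route, and are cut to the active form in its acid interior. Cysteine cathepsins use a cysteine in the active site, cathepsin D an aspartate and cathepsin A a serine. Macrophages hold much of these enzymes because they digest what they engulf, and in the fetal liver this includes the nuclei that maturing erythroblasts expel.

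Values are normalized counts, the reads assigned to a gene after the authors scaled the samples to each other. Genotypes were compared on a log2 scale with limma, a linear model that shares the estimate of spread among genes, and a gene passed at a threshold of 0.05 for the p-value adjusted over all genes tested. *Xpr1* had 1162.1 ± 84.9 normalized counts in Mrc1Cre Xpr1fl/fl samples (SD, n = 5) and 1981.6 ± 204.7 in Xpr1fl/fl samples (SD, n = 4), which is −0.77 on the log2 scale (limma adjusted p = 4.13e-05). *Mrc1*, whose locus carries the construct, had 7574.1 ± 1265.6 against 24693.3 ± 2674.1 normalized counts, a log2 difference of −1.72 (limma adjusted p = 5.37e-06). *Dnase2a*, the lysosomal DNase that digests engulfed nuclei, had 5438.2 ± 225.8 against 5973.4 ± 598.7 and did not pass (log2 fold change −0.13, limma adjusted p = 0.146). It was lower past the threshold without Xpr1fl/fl sample 2 (−0.21, limma adjusted p = 0.0105), scaled to the 75th percentile (−0.21), under quantile normalization (−0.23) and scaled to pan-macrophage genes (−0.29). By qRT-PCR on sorted macrophages of these genotypes at the same embryonic day, the study reported *Dnase2a* as significantly reduced. Totals per sample lay between 26942921 and 28309443 normalized counts and are set by the normalization, so that the depth is unknown. The column names of the table begin with 1 of 3 dates, whose meaning is not given. Mrc1Cre Xpr1fl/fl sample 5 and Xpr1fl/fl samples 1 to 3 carry the earliest date, Xpr1fl/fl sample 4 the middle date and the other 4 Mrc1Cre Xpr1fl/fl samples the latest.

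Of the 10 genes, *Ctsc*, *Ctsz* and *Ctss* were higher in Mrc1Cre Xpr1fl/fl macrophages past the threshold, while *Ctsd* and *Ctsh* were lower, although *Ctsd* changed sign under quantile normalization. The other 5 did not pass. Among all genes tested 21.5% were higher and 21.6% lower, 43.1% in all, so that 5 of 10 members is near the background. The median log2 fold change was −0.047 over the members and 0.0050 over all genes tested, and the median of its absolute value over all genes was 0.25. The highest log2 fold change among the members was that of *Ctsc* with 0.43, and the lowest that of *Ctsd* with −0.27. For *Ctsc* and *Ctsz* every Mrc1Cre Xpr1fl/fl sample lay above every control, as for 16.6% of the genes tested. None of the 10 members lay below the controls in every Mrc1Cre Xpr1fl/fl sample, as 17.5% of the genes did.

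**Figure D1:**
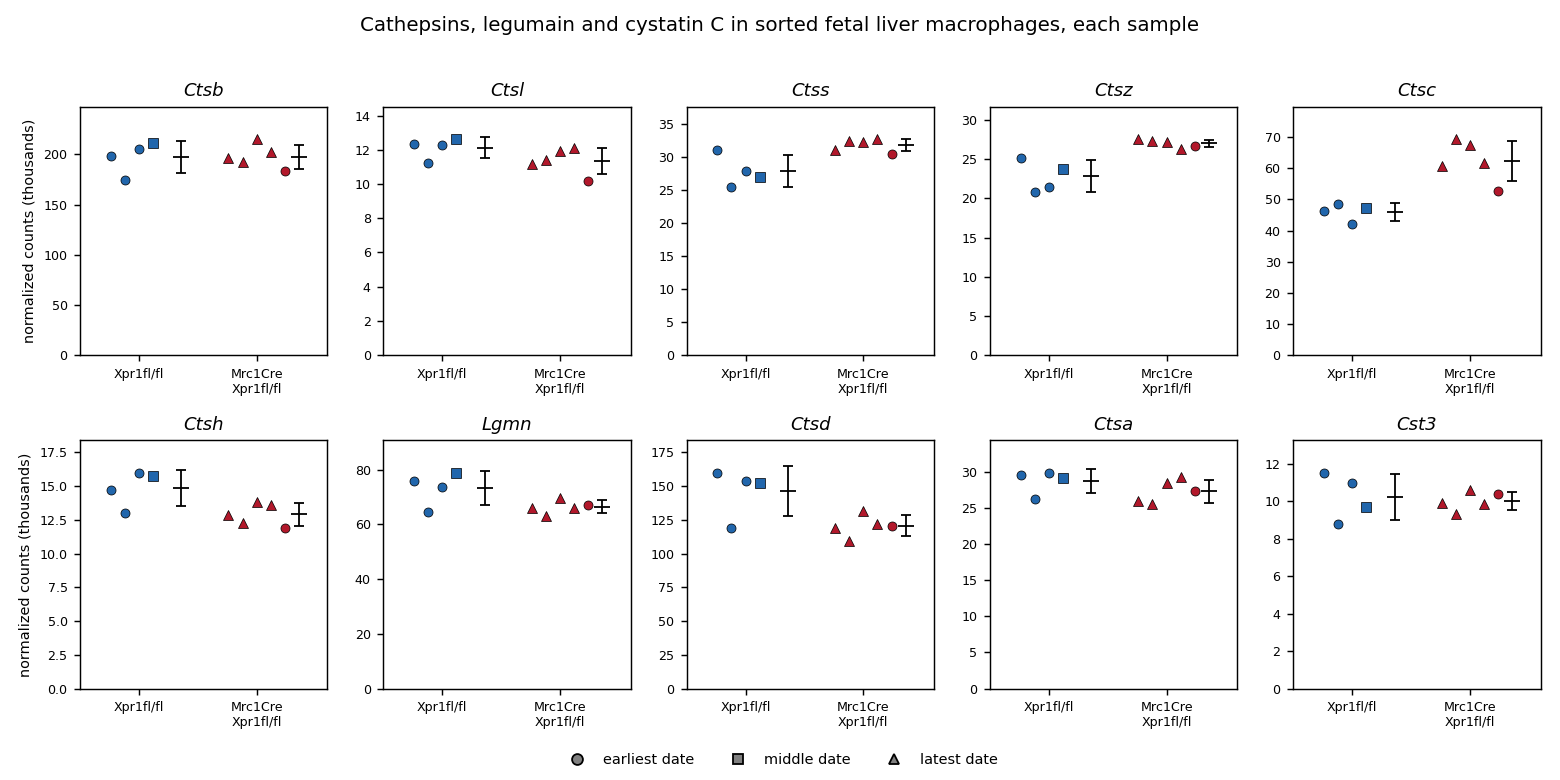
Normalized counts (in units of 1000, linear axes from 0) of the 10 genes in each of the 4 Xpr1fl/fl and 5 Mrc1Cre Xpr1fl/fl samples. Each symbol is 1 sample and its shape gives the date in the column name. Bars show the mean ± SD. *Ctsc* and *Ctsz* separate the genotypes, whereas the samples of the other 8 genes overlap.

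The members held 2.00%, 1.96%, 2.15%, 2.05% and 1.93% of all normalized counts in Mrc1Cre Xpr1fl/fl samples 1 to 5. Their share was 2.14%, 1.90%, 2.14% and 2.16% in Xpr1fl/fl samples 1 to 4, so the genotypes overlapped. Xpr1fl/fl sample 2 was low, and 9 of the 10 members, all but *Ctsc*, were below their control mean in it (median deviation −0.15 on the log2 scale, against −0.0041 over all genes). In Mrc1Cre Xpr1fl/fl sample 3 all 10 members were above their group's mean.

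Per kilobase of the canonical transcript, *Ctsd* had the highest level in controls, with 68753 ± 8690 normalized counts (SD, n = 4), followed by *Ctsb* with 41319 ± 3379. Their control samples did not overlap on this scale. *Lgmn* (22601 ± 1897) and *Ctss* (20419 ± 1742) came next and overlapped with each other. *Ctsc* (17088 ± 1056) and *Cst3* (11077 ± 1344) stood apart from their neighbours above, while *Cst3*, *Ctsh* (9044 ± 816), *Ctsa* (7775 ± 454) and *Ctsz* (6665 ± 591) each overlapped with the next in order. *Ctsl* was the lowest, with 2051 ± 105 per kilobase of a transcript of 5908 bases. Per kilobase of coding sequence, *Ctsb* came first with 194082 ± 15871 and *Ctsd* second with 118892 ± 15027. On that scale *Ctsc* (33214 ± 2052) came above *Ctss* (27345 ± 2332), with overlap between them. *Ctsz* (24852 ± 2203) came above *Cst3* (24395 ± 2960), with overlap, and above *Ctsa* (19453 ± 1137) and *Ctsh* (14874 ± 1342). *Ctsl* stayed the lowest with 12090 ± 618. The order thus depends on the length used, for the top pair and for others.

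The promoters of 3 members are shown for reference because they belong to the member with the largest rise (*Ctsc*), the one with the lowest fold change (*Ctsd*) and another that rose (*Ctss*). Each is the 250 bases before the start of the GENCODE canonical transcript on GRCm39, written 5′ to 3′ on the strand of the gene. They lie at chr7:87926842-87927091 (plus strand), chr7:141941776-141942025 (minus strand) and chr3:95433839-95434088 (plus strand). Capitals mark CACGTG, the core of the E-box that TFEB and related factors bind, and GAAA followed after any 2 bases by another GAAA, a repeat of the kind that interferon regulatory factors bind.
Ctsc: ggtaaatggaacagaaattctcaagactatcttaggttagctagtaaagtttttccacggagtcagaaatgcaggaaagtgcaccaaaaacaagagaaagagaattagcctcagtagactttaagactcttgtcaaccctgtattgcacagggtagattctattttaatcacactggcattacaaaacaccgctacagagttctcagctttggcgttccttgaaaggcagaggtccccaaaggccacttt
Ctsd: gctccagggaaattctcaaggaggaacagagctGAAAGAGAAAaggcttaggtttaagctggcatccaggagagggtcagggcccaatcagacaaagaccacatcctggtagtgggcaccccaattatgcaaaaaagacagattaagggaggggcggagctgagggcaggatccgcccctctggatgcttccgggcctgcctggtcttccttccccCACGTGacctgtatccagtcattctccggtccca
Ctss: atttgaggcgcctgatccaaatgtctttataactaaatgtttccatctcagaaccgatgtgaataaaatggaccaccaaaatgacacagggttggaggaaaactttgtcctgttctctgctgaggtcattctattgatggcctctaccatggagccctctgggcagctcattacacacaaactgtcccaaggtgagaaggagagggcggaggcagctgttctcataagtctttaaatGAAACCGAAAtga

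CACGTG was found in 1 of the 10 members, *Ctsd*, 34 bases before the start, and in 7.3% of the 13698 promoters of this length. The longer TCACGTG, which contains it, was at the same place in *Ctsd* and in 3.82% of all promoters, and TCACGTGA was in 0 of the 10 and in 1.04%. The GAAA repeat was found in *Ctsb*, *Ctsd* and *Ctss*, beginning 97, 217 and 13 bases before the start, and in 3.26% of all promoters. Of these 3 genes 1 rose, 1 was lower and 1 did not pass the test. The matches in *Ctsb* and *Ctss* lie within the annotated genes, which begin before the canonical transcript used here. The windows of *Ctsl*, *Lgmn* and *Cst3* lie within the annotated genes too. Neither the *Ctsc* promoter nor that of *Ctsz*, which rose more than *Ctss* but is not shown, held these letters, and both strands were searched. The motifs were chosen after the values were seen, and a match describes the letters only.

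Among the cysteine endopeptidases, *Ctss* was higher in Mrc1Cre Xpr1fl/fl macrophages and neither *Ctsb* nor *Ctsl* passed the test. *Ctss* (ENSMUSG00000038642, chromosome 3, 95433963 to 95463717, plus strand) encodes cathepsin S, which stays active at neutral pH and trims the invariant chain of MHC class II. It had 31154.6, 32405.3, 32239.2, 32706.2 and 30533.8 normalized counts in Mrc1Cre Xpr1fl/fl samples 1 to 5 and 31165.4, 25555.3, 27851.2 and 26996.0 in Xpr1fl/fl samples 1 to 4. Xpr1fl/fl sample 1 lay within the range of the Mrc1Cre Xpr1fl/fl samples, and the other 3 controls lay below all of them. The log2 fold change was 0.19 (SE 0.062, limma adjusted p = 0.0255), with a 95% interval of 0.058 to 0.33. The call was lost without Mrc1Cre Xpr1fl/fl sample 2, 3 or 4 or Xpr1fl/fl sample 2, 3 or 4, with limma adjusted p-values from 0.0543 to 0.0699.

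*Ctsb* (ENSMUSG00000021939, chromosome 14, 63358384 to 63383372, plus strand) encodes cathepsin B, which cuts within proteins and also removes dipeptides from their ends. It had 196073.8, 192048.5, 214969.8, 202904.3 and 183175.7 normalized counts in Mrc1Cre Xpr1fl/fl samples 1 to 5 and 198323.4, 174538.3, 205243.0 and 211419.8 in Xpr1fl/fl samples 1 to 4. Its groups overlapped over most of their range. Its log2 fold change was 0.0050 (SE 0.083, limma adjusted p = 0.968), and the 95% interval of −0.18 to 0.19 bounds the difference that these samples leave possible. Alone it made up 0.70% of all normalized counts in Mrc1Cre Xpr1fl/fl samples and 0.71% in controls.

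*Ctsl* (ENSMUSG00000021477, chromosome 13, 64507151 to 64518704, minus strand) encodes cathepsin L. It had 11159.8, 11404.8, 11945.0, 12115.9 and 10197.3 normalized counts in Mrc1Cre Xpr1fl/fl samples 1 to 5 and 12339.0, 11208.7, 12301.0 and 12609.6 in Xpr1fl/fl samples 1 to 4. All but the second control lay above every Mrc1Cre Xpr1fl/fl sample. The difference was −0.093 on the log2 scale (SE 0.060, 95% interval −0.23 to 0.039, limma adjusted p = 0.235). *Ctsl* passed as lower under quantile normalization (−0.20, limma adjusted p = 0.0119), where *Ctsd* did not, and when samples were scaled to their 75th percentile (−0.17, limma adjusted p = 0.0308).

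The exopeptidases among the cysteine cathepsins went different ways, with *Ctsc* and *Ctsz* higher and *Ctsh* lower. *Ctsc* (ENSMUSG00000030560, chromosome 7, 87927092 to 87960096, plus strand) encodes dipeptidyl peptidase I, which takes dipeptides off the amino end of proteins and so activates the serine proteases of granules. It had 60597.7, 69301.5, 67426.4, 61701.5 and 52754.4 normalized counts in Mrc1Cre Xpr1fl/fl samples 1 to 5 and 46242.3, 48682.0, 42043.3 and 47170.1 in Xpr1fl/fl samples 1 to 4. Mrc1Cre Xpr1fl/fl sample 5, the sample that shares its date with controls, was the lowest of its group and still above every control. *Ctsc* was 1.35-fold higher on average, with a log2 fold change of 0.43 (SE 0.083, 95% interval 0.25 to 0.62, limma adjusted p = 0.00181). In fits without 1 sample it ranged from 0.39 to 0.49, with limma adjusted p-values of at most 0.00758.

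*Ctsz* (ENSMUSG00000016256, chromosome 2, 174267304 to 174280832, minus strand) encodes cathepsin Z, a carboxypeptidase. It had 27512.0, 27353.1, 27136.7, 26301.6 and 26711.5 normalized counts in Mrc1Cre Xpr1fl/fl samples 1 to 5 and 25179.0, 20835.6, 21462.7 and 23779.2 in Xpr1fl/fl samples 1 to 4. The Mrc1Cre Xpr1fl/fl samples lay close together and above all controls, of which sample 1 came nearest. On the log2 scale *Ctsz* was higher by 0.25 (SE 0.061, 95% interval 0.11 to 0.38, limma adjusted p = 0.00733). *Ctsz* passed in each fit that left out 1 sample (limma adjusted p of at most 0.0272).

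*Ctsh* (ENSMUSG00000032359, chromosome 9, 89936205 to 89958148, plus strand) encodes cathepsin H, mainly an aminopeptidase. It had 12899.8, 12248.5, 13842.3, 13638.0 and 11904.0 normalized counts in Mrc1Cre Xpr1fl/fl samples 1 to 5 and 14683.6, 13034.0, 15988.7 and 15728.9 in Xpr1fl/fl samples 1 to 4. The second control overlapped with the Mrc1Cre Xpr1fl/fl samples and the other controls lay above all of them. The log2 fold change was −0.20 (SE 0.071, 95% interval −0.36 to −0.046, limma adjusted p = 0.0387). Without Mrc1Cre Xpr1fl/fl sample 1, 2 or 5 or Xpr1fl/fl sample 1, 3 or 4 it no longer passed (limma adjusted p from 0.0645 to 0.115).

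*Ctsd* (ENSMUSG00000007891, chromosome 7, 141929646 to 141941775, minus strand) encodes cathepsin D, the main aspartic protease of lysosomes. It had 118925.0, 109685.6, 131467.1, 122082.1 and 120382.7 normalized counts in Mrc1Cre Xpr1fl/fl samples 1 to 5 and 159848.0, 118958.5, 154114.3 and 152026.0 in Xpr1fl/fl samples 1 to 4. The second control fell among the Mrc1Cre Xpr1fl/fl samples, and the other 3 controls were above all of them. The log2 fold change was −0.27 (SE 0.095, 95% interval −0.48 to −0.063, limma adjusted p = 0.0375), but under quantile normalization it was 0.15 (limma adjusted p = 0.0890). The call was also lost without Mrc1Cre Xpr1fl/fl sample 1, 2, 4 or 5 or Xpr1fl/fl sample 1, 3 or 4 (limma adjusted p from 0.05004 to 0.0976), and without Xpr1fl/fl sample 2 the log2 fold change was −0.37 (limma adjusted p = 0.00323). Quantile normalization sets a value by its rank in the sample, and *Ctsd* ranked 7 to 10 among all genes. The globin gene *Hba-a1* lay above *Ctsd* in Xpr1fl/fl samples 1, 3 and 4 and below it in every Mrc1Cre Xpr1fl/fl sample. The part of such ranks in the change of sign was not tested. *Gm49369*, a protein-coding gene model that overlaps *Ctsd* on the same strand, had 40.2 to 325.2 normalized counts over the 9 samples, which is little beside the counts of *Ctsd*.

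The other 3 members did not pass the test. *Ctsa* (ENSMUSG00000017760, chromosome 2, 164674778 to 164682961, plus strand) encodes the serine carboxypeptidase cathepsin A, which also protects lysosomal β-galactosidase and neuraminidase. It had 25942.3, 25608.5, 28529.1, 29340.6 and 27351.9 normalized counts in Mrc1Cre Xpr1fl/fl samples 1 to 5 and 29534.3, 26231.3, 29891.0 and 29191.4 in Xpr1fl/fl samples 1 to 4. Its groups overlapped, with a log2 fold change of −0.070 (SE 0.062, 95% interval −0.20 to 0.065, limma adjusted p = 0.383). *Pltp* overlaps *Ctsa* on the opposite strand and had 2182.5 to 3652.4 normalized counts in Mrc1Cre Xpr1fl/fl samples against 5598.1 to 10293.5 in controls. *Ctsb* and *Ctsz* also overlap genes of the opposite strand, *Fdft1* (297.8 to 502.0 normalized counts over the 9 samples) and *Nelfcd* (779.5 to 1160.9). The libraries were stranded, but the strand setting of the counting is not given in the sources used here, so reads of *Ctsa* and *Pltp* could have been mixed.

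*Lgmn* (ENSMUSG00000021190, chromosome 12, 102359122 to 102414682, minus strand) encodes legumain, which cuts after asparagine and processes several cathepsins. It had 65960.5, 63078.8, 69654.2, 66072.4 and 67023.9 normalized counts in Mrc1Cre Xpr1fl/fl samples 1 to 5 and 75921.2, 64574.1, 73697.0 and 78804.1 in Xpr1fl/fl samples 1 to 4. As for *Ctsl*, *Ctsh* and *Ctsd*, the second control was the only one within the range of the other genotype. The log2 fold change was −0.14 (SE 0.068, 95% interval −0.29 to 0.011, limma adjusted p = 0.122), and without that control it was −0.20 and passed (limma adjusted p = 0.0227).

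*Cst3* (ENSMUSG00000027447, chromosome 2, 148713635 to 148717887, minus strand) encodes the inhibitor cystatin C. It had 9930.6, 9344.3, 10600.2, 9861.8 and 10381.5 normalized counts in Mrc1Cre Xpr1fl/fl samples 1 to 5 and 11525.6, 8771.1, 10977.2 and 9709.3 in Xpr1fl/fl samples 1 to 4. The controls spread on both sides of the Mrc1Cre Xpr1fl/fl samples. For *Cst3* the log2 fold change was −0.025 (SE 0.077, 95% interval −0.19 to 0.14, limma adjusted p = 0.819).

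A fit that includes the date sets Mrc1Cre Xpr1fl/fl sample 5 against Xpr1fl/fl samples 1 to 3. In that fit 0 of the 10 members passed in limma, against 8.78% of all genes, and 3 had an unadjusted p under the threshold. *Ctsc* then had a log2 fold change of 0.21 (SE 0.12, limma adjusted p = 0.282) and *Ctsz* 0.25 (SE 0.11, limma adjusted p = 0.169). *Ctss* had 0.12, *Ctsh* −0.29, *Ctsd* −0.25 and *Ctsl* −0.23. Mrc1Cre Xpr1fl/fl sample 5 lay above all 3 controls of its date for *Ctsc* and *Ctsz* and below them for *Ctsh* and *Ctsl*, whereas for *Ctsd* and *Ctss* it lay between them.

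**Figure D2:**
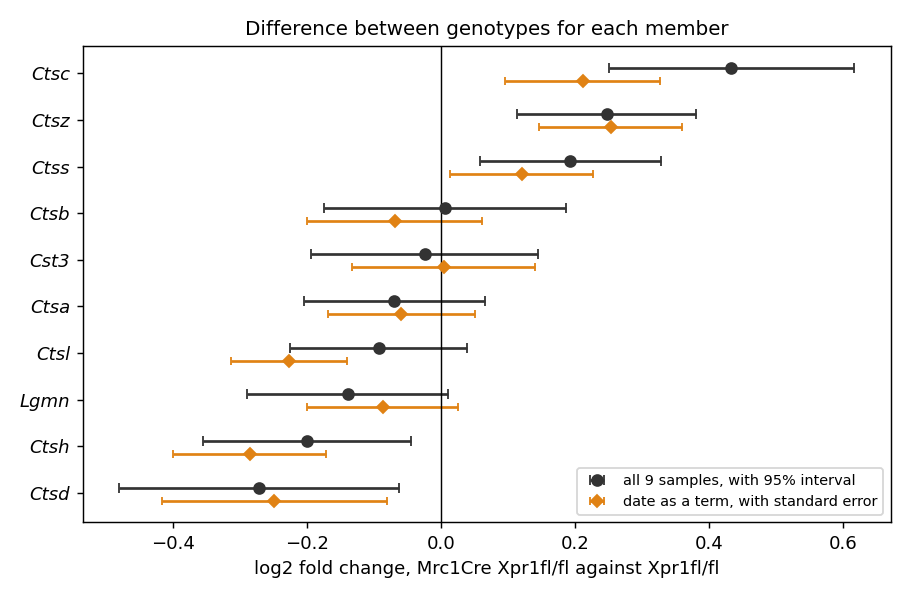
Log2 fold change of each member, Mrc1Cre Xpr1fl/fl against Xpr1fl/fl, from the fit to all 9 samples (black, with the 95% interval) and from the fit with the date as a term (orange, with the standard error). The black intervals of *Ctsc*, *Ctsz* and *Ctss* lie above 0 and those of *Ctsh* and *Ctsd* below it, but *Ctsd* was at 0.15 under quantile normalization.

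Ratios within a sample do not depend on a factor shared by all genes of that sample, but they can change under quantile normalization. They were not computed under it. There the log2 fold change of *Ctsd* was 0.15, while that of *Ctsb* was at most 0.039 in any alternative. *Cst3* had 29.3 ± 2.2 normalized counts per 1000 of the 6 cysteine cathepsins *Ctsb*, *Ctsc*, *Ctsh*, *Ctsl*, *Ctss* and *Ctsz* in the 5 Mrc1Cre Xpr1fl/fl samples and 31.9 ± 3.1 in the 4 controls (mean ± SD). The ranges of 27.1 to 32.9 and 28.8 to 35.1 overlapped. The ratio of *Ctsl* to *Ctss* was 0.357 ± 0.015 in Mrc1Cre Xpr1fl/fl samples and 0.436 ± 0.030 in controls, and the groups did not overlap (at most 0.371 against at least 0.396). Likewise the ratio of *Ctsb* to *Ctsd* was 1.64 ± 0.08 against 1.36 ± 0.10, with a lowest value of 1.52 against a highest of 1.47. The ratio of *Ctsc* to *Ctsd*, chosen after the values were seen, was 0.520 ± 0.070 against 0.320 ± 0.061 and did not overlap either. A ratio shows unequal change and not which of its genes changed. How often the ratios of other gene pairs are apart between the genotypes was not computed, so these separations have no background beside them.

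**Figure D3:**
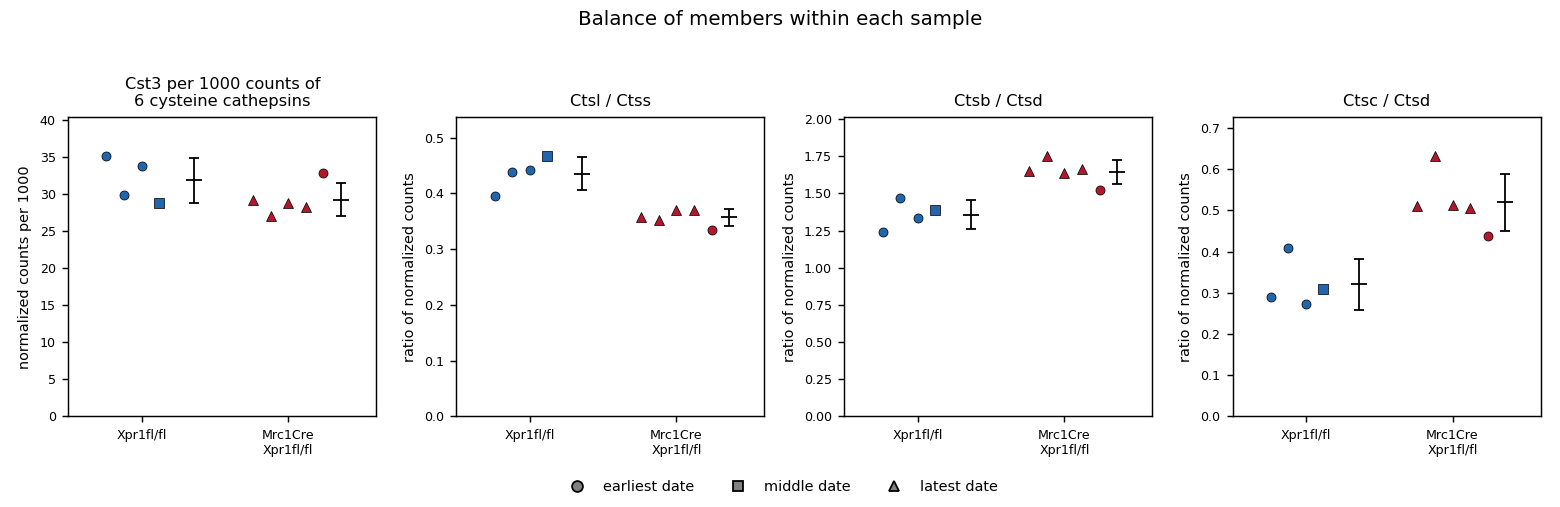
Ratios between members within each sample, as normalized counts of *Cst3* per 1000 counts of the 6 cysteine cathepsins and as *Ctsl* to *Ctss*, *Ctsb* to *Ctsd* and *Ctsc* to *Ctsd*. Symbols are samples shaped by date, bars are the mean ± SD, and all axes start at 0. The genotypes overlap for *Cst3* and are apart for the other 3 ratios. Of these, *Ctsc* to *Ctsd* pairs the members with the highest and lowest fold change and was chosen after the values were seen. No share over other gene pairs was computed.

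Over the 9 samples, the genes whose log2 values ran closest to those of *Ctsc* were *Rlim*, *Chd4* and *Luzp1*, with root mean square distances of 0.0518, 0.0597 and 0.06001 after centring each gene on its mean. The median distance over the 7577 genes compared, those averaging 500 normalized counts or more, was 0.241. Among the genes closest to *Ctsd* were *Laptm4a* and *Htatip2*, at distances of 0.0518 and 0.0584, with a median of 0.251. All of these patterns share the libraries, including the low second control for *Ctsd*, *Laptm4a* and *Htatip2*.

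The other cathepsins in the table, with the cathepsin-like gene *Tinagl1* listed among them, had fewer normalized counts than any member. They were mostly lower in Mrc1Cre Xpr1fl/fl macrophages. Of 17 genes listed 6 were tested, and 5 were lower, 0 higher and 1 did not pass in limma (median log2 fold change −1.63, no gene with a rise at an unadjusted p under the threshold). *Ctsf*, another cysteine cathepsin, had 788.2 ± 118.0 against 2086.1 ± 217.7 normalized counts (log2 fold change −1.41, limma adjusted p = 1.08e-05), and *Ctso* had 871.9 ± 65.5 against 1232.5 ± 125.2 (−0.50). The remaining pair that passed were *Ctse* (−1.94) and *Tinagl1* (−1.85). *Ctsg*, a serine protease of neutrophil granules, had 90.4 ± 11.9 against 451.5 ± 141.3 (−2.26). *Ctsf* and *Ctsg* were also lower in the fit that included the date, where the other 3 no longer passed and *Tinagl1* had −0.95 and *Ctse* −1.17.

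Of the serine proteases that *Ctsc* activates, 6 of 9 were tested and 5 were lower, with a median log2 fold change of −1.93 and 0 higher. Beside *Ctsg* these were *Prtn3* (−2.10), *Elane* (−2.22), *Prss57* (−1.76) and *Gzma* (−1.70), proteases of the granules of neutrophils and of other immune cells, and all 5 were lower while *Ctsc* was higher. *Elane*, *Prtn3* and *Ctsg* are also 3 of the 4 lower genes among the neutrophil markers, the fourth being *Mpo* (−1.87). In single cells of the fetal liver, the study classed clusters with *Elane*, *Prtn3* and *Ms4a3* as granulocyte-monocyte progenitors. The part of RNA from neutrophils or such progenitors was not tested. With the date included, *Prss57* (−1.92, limma adjusted p = 0.149) and *Gzma* (−1.03, limma adjusted p = 0.354) did not pass, and the other 3 did. Of the other cystatins and protease inhibitors, 15 of 20 were tested, 2 were higher, 4 lower and 9 did not pass (median −1.11). The higher ones were the serine protease inhibitors *Serpina3g* (2.29) and *Serpinb9* (0.64), and the lower ones were *Cst7* (−1.45), *Serpinb1a* (−1.68), *Serpinh1* (−1.58) and *A2m* (−1.08), named after their values were seen. The most abundant genes of the list, *Serpinb6a* (−0.18), the cystatin B gene *Cstb* (0.15) and the stefin gene *Stfa1* (−1.65), did not pass. Each depended on the samples or the scaling, since *Cstb* was higher without Xpr1fl/fl sample 1 (0.24, limma adjusted p = 0.00235) and *Stfa1* lower without Mrc1Cre Xpr1fl/fl sample 5 (−2.03) or Xpr1fl/fl sample 4 (−2.35, limma adjusted p = 0.00460). *Serpinb6a* was lower without Xpr1fl/fl sample 2 (−0.23, limma adjusted p = 0.0302), and it passed in 5 of the 21 alternatives and *Stfa1* in 4. With the date included, *Serpina3g*, *Serpinb9* and *Serpinh1* still passed, and *A2m* had −0.58. Several stefin genes of this list varied widely among controls. *Stfa2* had 23.0 normalized counts in Xpr1fl/fl sample 4 and 1137.0 in Xpr1fl/fl sample 3, and the neutrophil gene *Ngp* had 193.0 and 10997.6 there. The part of neutrophil RNA in the median of this list was not tested.

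The list for sorting of lysosomal enzymes also holds other lysosomal proteins, namely *Psap*, *Lamp1*, *Lamp2* and *Npc2*. It gave 4 higher, 3 lower and 7 that did not pass of 14 tested, with a median of −0.019. Counts of this and the other lists stand beside 43.1% of all genes tested that passed, or 8.78% with the date included. *Psap*, the precursor of the saposins, which help lysosomal hydrolases to act on lipids, had 186677 ± 3815 against 150725 ± 9412 normalized counts and did not overlap between the genotypes (log2 fold change 0.31, limma adjusted p = 0.00407). *Lamp1* (−0.051) and *Npc2* (−0.0026) did not pass. The other 3 that rose were the mannose 6-phosphate receptor *M6pr* (0.28), *Gnptab* (0.72), which makes the mannose 6-phosphate tag, and *Lamp2* (0.29), and the 3 that were lower were *Igf2r* (−0.50), which encodes the larger mannose 6-phosphate receptor, *Gnptg* (−0.36) and *Scarb2* (−0.33). These 6 were named after their values were seen. With the date included, 2 were higher (*M6pr* and *Gnptab*) and 2 lower (*Igf2r*, at −0.87, and *Scarb2*), while *Lamp2* had 0.050 (limma adjusted p = 0.694) and *Psap* 0.27 (limma adjusted p = 0.177). In the list of other lysosomal peptidases, which also holds *Ifi30* and *Pcyox1* that are not peptidases, 9 genes were tested. Of these 1 was higher, 4 were lower and 4 did not pass (median −0.077). *Ifi30*, a thiol reductase of lysosomes, and the tripeptidyl peptidase *Tpp1* were lower, with log2 fold changes of −0.30 and −0.23, and *Pcyox1* (0.070) did not pass. The others that passed, named after their values were seen, were *Scpep1* (0.20), *Dpp7* (−0.29) and *Cpq* (−0.70). With the date included *Cpq* alone passed, *Scpep1* had 0.094 (limma adjusted p = 0.535) and *Dpp7* changed sign to 0.050 (limma adjusted p = 0.860).

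Of the 8 transcription factors linked to lysosomal genes, 2 were higher and 6 did not pass (median 0.059). *Tfe3* was higher with 0.26 (limma adjusted p = 0.00129), as was *Mlx* with 0.36, while *Max* (−0.11) and *Usf2* (−0.095) did not pass. In MHC class II presentation 9 genes were tested, of which 1 was higher, 2 were lower and 6 did not pass (median −0.71). *H2-DMa* was higher with 0.23 (limma adjusted p = 0.0468), *H2-DMb1* and *H2-Ab1* lower with −0.88 and −1.28, and *Cd74*, the invariant chain, had 0.18 and did not pass. The call on *H2-DMa* was lost in 14 of the 21 alternatives. With the date included, *Mlx* (0.52) still passed and *Tfe3* (0.27, limma adjusted p = 0.0638) did not. Nor did *H2-DMa* (0.21, limma adjusted p = 0.321), *H2-DMb1* (−0.80, limma adjusted p = 0.0783) or *H2-Ab1* (−0.96, limma adjusted p = 0.239).

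**Figure D4:**
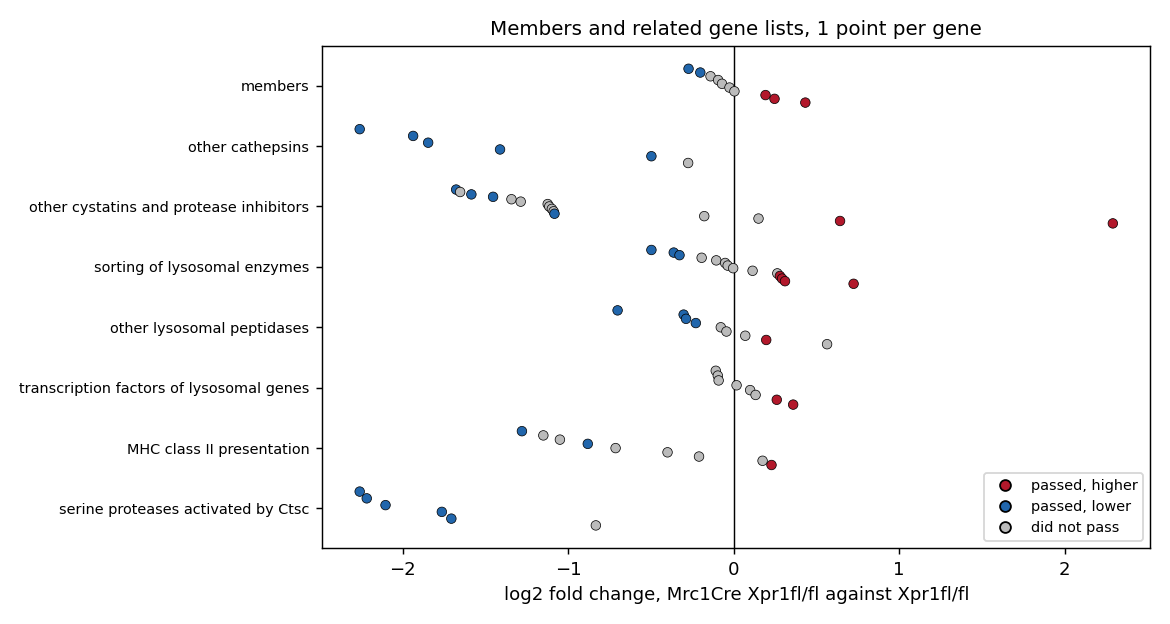
Log2 fold change of the 10 members and of the genes tested in 7 related lists, Mrc1Cre Xpr1fl/fl against Xpr1fl/fl, 1 point per gene, coloured by whether it passed the limma test. The members lie between −0.27 and 0.43, whereas other cathepsins and the serine proteases activated by *Ctsc* reach below −2. *Ctsg* is in both of these lists, and *Ctsd* turned to 0.15 under quantile normalization.

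Markers of other liver cells moved with the genotype as well. The 14 erythroid genes tested were all lower and held 0.328% to 1.10% of normalized counts in Mrc1Cre Xpr1fl/fl samples against 1.501% to 2.34% in controls, with Mrc1Cre Xpr1fl/fl sample 5 the highest of its group. All 11 hepatocyte genes (0.126% to 0.164% against 0.223% to 0.369%) and 8 of 10 endothelial genes (0.0225% to 0.0300% against 0.0384% to 0.0512%) were lower too. Neutrophil genes (4 of 10 lower, 0.0182% to 0.0669% against 0.0328% to 0.200%) overlapped in sum, and megakaryocyte genes (2 of 5 lower, 0.00256% to 0.00371% against 0.00797% to 0.00919%) did not. Of 7 monocyte genes 2 were higher and 2 lower (0.0331% to 0.0449% against 0.0203% to 0.0305%), and of 10 pan-macrophage genes, which include *Csf1r* and *Mpeg1*, 3 were higher (1.03% to 1.13% against 0.950% to 1.05%). With the date included, 3 erythroid, 2 hepatocyte, 2 endothelial, 4 neutrophil and 1 megakaryocyte genes were lower and 1 pan-macrophage gene was higher, while the monocyte genes *Plac8* (0.65, limma adjusted p = 0.0749) and *Itgam* (0.31, limma adjusted p = 0.298) did not pass. The globin gene *Hbb-bs* went from −1.89 to −0.74 in that fit and *Alb*, the hepatocyte gene of albumin, from −1.11 to −0.58. In bulk samples fewer cells of a type and less RNA per cell cannot be told apart, and the part of these cells in the differences of the members was not tested.

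Scaling each sample to the pan-macrophage genes moved the median log2 fold change of all genes to −0.15, with 21.1% of the genes called being higher against 49.9% without it. The median of the members was then −0.21. *Ctsc* alone stayed higher past the threshold and 5 members were lower, namely *Ctsa*, *Ctsd*, *Ctsh*, *Ctsl* and *Lgmn*. The scaling uses the mean of the 10 pan-macrophage genes, of which 3 were higher in Mrc1Cre Xpr1fl/fl samples without it. *Ptprc*, the gene of CD45, had the largest rise of them with 0.85, against a median of 0.12 over the 10. The part of *Ptprc* in these shifts was not tested. Scaling to the 75th percentile, which moved the median of all genes to −0.074 and the higher share to 35.0%, gave 2 members higher and 4 lower.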

How the data were processed

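Macrophages of 5 Mrc1Cre Xpr1fl/fl and 4 Xpr1fl/fl samples at E15.5 were measured by bulk RNA-seq from 45 ng of total RNA with a stranded mRNA kit and paired-end sequencing. According to the methods and the labels, the authors ran FastQC on the reads, salmon against an index of GRCm39 for transcript quantification, AnnotationHub for annotation, tximport for the import and DESeq2 for normalization. Tool versions are not given in the sources used here. Values deposited by the authors are normalized counts, a signal per gene obtained by dividing counts by normalization factors. Of 4250 values between 0 and 10, 11.0% lay within 0.05 of a whole number, so whole reads could not be read off, no count test was run, and depth per sample is unknown. All columns matched a sample (0 did not).

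Gene names, coordinates, transcripts and the sequences of promoters came from GENCODE mouse release 39 and the GRCm39 genome, which gave a symbol for 13698 of 13708 genes. Genotypes were compared with limma 3.58.1 in R 4.3.3 (lmFit, eBayes with trend) on log2(normalized count + 1), after dropping genes that did not reach 10 normalized counts in 4 or more samples, with Benjamini-Hochberg adjustment over all 13594 genes tested and a threshold of 0.05. A fold change on this scale understates changes of low genes. Shares and ratios were computed per sample and not tested. The limma step was tested on simulated data. Python 3.11.15 with matplotlib 3.10.9 made the figures.

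The members, the gene lists (other cathepsins, cystatins and inhibitors, sorting, other lysosomal peptidases, transcription factors, MHC class II, serine proteases activated by *Ctsc*, and 7 marker lists) and the tests were chosen with earlier results of these data known. Named were the members, *Xpr1*, *Mrc1*, *Dnase2a*, the 3 most abundant genes of each gene list and the 2 most abundant of each marker list, of which the report gives some, and the 3 genes nearest to the members with the largest rise and fall, of which 1 is not reported here. The alternatives were other pseudocounts, filters and scalings, limma without trend or with robust fitting, the replicate number as a block, the date as a term, the shared date alone and leaving out each sample.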

Additional observations from a re-analysis of the deposited data

Results flagged for a closer look

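In 74 groups of 4 or 5 samples of a genotype, the gap of the extreme sample to the rest was large for 2, where chance gives about 3.7. *Psap* had 180094.8 normalized counts in Mrc1Cre Xpr1fl/fl sample 5, against 186596.2 to 189119.7 in the other samples of that genotype, and all 5 lay above the controls. The members held 1.9018% of normalized counts in Xpr1fl/fl sample 2, against 2.14% to 2.16% in the other controls, with 9 of the 10 members below their control mean there. Without that control 2 members were higher and 3 lower, since *Ctss* no longer passed (limma adjusted p = 0.0699) and *Lgmn* did (limma adjusted p = 0.0227).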

How the results depend on the processing

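*Ctsc* kept its direction in all 21 alternatives and its call in 19, and *Ctsz* its direction in all 21 and its call in 18. *Ctsd*, *Ctsh* and *Ctss* lost their calls in 10, 9 and 10 of them, and *Ctsd* under quantile normalization changed sign, to 0.15 on the log2 scale, as no other of these 5 did. With the 75th percentile 4 members were lower. Scaling to pan-macrophage genes gave 1 higher and 5 lower, with a median log2 fold change of −0.21, and limma without trend gave 1 lower. With the date as a term 0 were higher and 0 lower, and 1194 genes were called in all against 5865. With only the 4 samples of the shared date 0 were higher and 0 lower in limma, 0 members had an unadjusted p under the threshold and 455 genes were called. The Mrc1Cre Xpr1fl/fl group is then 1 sample, assumed to vary like the controls. There the log2 difference in the ratio of *Cst3* to the cysteine cathepsins was 0.0035 against −0.12 over all samples, and that of *Ctsb* to *Ctsd* 0.18 against 0.28. The cause of these shifts was not tested.

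Leaving out each sample in turn gave 2 to 3 members higher and 0 to 3 lower, a median of −0.10 to −0.019 and 4871 to 6099 genes called. The number lower was 0 without Mrc1Cre Xpr1fl/fl sample 1, 2 or 5 or Xpr1fl/fl sample 1, 3 or 4, 1 without Mrc1Cre Xpr1fl/fl sample 4, 2 without Mrc1Cre Xpr1fl/fl sample 3 and 3 without Xpr1fl/fl sample 2. Deviations of samples with the same replicate number had correlations of −0.033, 0.15, −0.011 and −0.031 over all genes for replicates 1 to 4. Only for replicate 2 was the control of the same number the best match. These values cannot exclude a pairing, and the labels name none. No samples of the same replicate number share a date. With the replicate number as a block, over replicates 1 to 4, 3 members were higher, 2 lower and 6227 genes called. That fit leaves out Mrc1Cre Xpr1fl/fl sample 5, the only one of its group that shares a date with controls. Genotype and date cannot be told apart in it, nor in the fit that leaves out that sample alone. Depth is unknown, and no alternative could give the counting error behind a value.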
